A study of Drosophila melanogaster with 6 samples.

Results

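73 genes that carried only a CG number in the deposited FPKM table were selected for a high level in GFP+ tendon precursors of the leg disc. A CG number is the annotation symbol that a predicted Drosophila gene keeps until it is given a name. The genes were chosen by 3 conditions, namely a symbol made of CG and digits alone, an FPKM (fragments mapped, scaled to transcript length and library size) of at least 10 in GFP+ cells, and an FPKM in GFP+ cells at least 2.5 times that of input cells. They made up 3.33% of the 2189 unnamed genes that reached an FPKM of 10 in GFP+ cells, out of 7337 unnamed genes and 17411 genes in all. Of the 3721 other genes with an FPKM of at least 10 in GFP+ cells, 148 passed the same ratio, which is 3.98%. Since FPKM in both groups chose the genes, their difference between the groups is a description, and no new test between libraries was fitted.

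Both groups came from Drosophila leg discs at 0 h APF (after puparium formation, the white pupa), with 3 libraries of GFP+ cells and 3 libraries of input cells. The labels give both groups the genotype sr-gal4>UASGFP, and the study's methods name UAS-Lifeactin.GFP as the reporter and place sr-gal4 over the TM6b balancer, so the input cells carried the same driver and reporter. sr-gal4 is an enhancer-trap line that reports stripe (sr), and discs of many pupae were pooled in every sample, dissociated in collagenase and papain and sorted by FACS. Input cells were sorted first and independently of fluorescence, so they include GFP+ cells and an unselected mixture of the disc, and GFP+ cells were sorted after them.

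Long tendons of the fly leg arise from clusters of epithelial cells at the segmental joints of the disc, which express sr, invaginate and lengthen into internal tubes that muscles later attach to. sr encodes a zinc finger transcription factor of the EGR family and directs tendon cell fate. Many CG genes are supported by transcripts and predicted proteins but have had no function assigned by genetics, so a list of them names transcripts rather than a pathway. Roles are given below only for genes that have since been named.

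The label of the sort was checked with marker genes. sr had an FPKM of 54.5 in GFP+ cells against 6.59 in input cells, and a deposited log2 fold change of 2.98 (SE 0.16). Of 12 markers of tendon cells that the deposited DESeq2 comparison had tested, 8 were higher and 4 lower in GFP+ cells, and of 12 markers of myoblasts 0 were higher and 9 lower. Of 12 genes of the dissociation stress response with an adjusted p, 6 were higher in GFP+ cells and 0 lower. The 6 were Hsp70Aa, Hsp70Ab, Hsp70Bb, Hsp70Bc, Hsp68 and Jra, so most of them are copies of Hsp70. Hsp26, Hsp23, DnaJ-1, kay, puc and Gadd45 had no call. Hsp68, a heat shock protein with the largest fold change of these genes, had 1081 FPKM in GFP+ cells against 471 in input cells. The part of this response in the levels of the selected genes was not tested. The libraries also differed in markers of the fat body. The 7 fat body genes whose reads could be assigned to libraries summed to 159, 276 and 3231 normalized reads in GFP+ libraries A, B and C and to 305, 297 and 380 in input libraries A, B and C. In bulk RNA, fewer cells of a type and less RNA per cell cannot be told apart.

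All 73 genes were found in the Ensembl 115 annotation of dm6, the build of the deposited files, and all were protein coding. Of these, 62 still had the CG number as their symbol and 11 had been renamed, namely Orcokinin (CG13565), prim (CG15704), MtnF (CG43222), Cipc (CG31324), Tmtc2 (CG4341), VhaAC45RP (CG31030), Gabat (CG7433), NaPi-III (CG42575), Ctl2 (CG11880), Sf3b6 (CG13298) and BORCS6 (CG17180). The label "unnamed" therefore describes the symbols of the deposited table and not the present annotation.

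The levels spread over a wide range, and most genes were near the floor of the selection. FPKM in GFP+ cells ran from 10.2 to 568 with a median of 19.8, against a median of 2.83 in input cells. 40 genes were under 20 FPKM in GFP+ cells and 14 were at or above 50. In input cells 6 genes were under 1 FPKM and 13 were at or above 10. The selection thus holds a few abundant transcripts that were also present in the mixed disc, and many that were low there.

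The gene with the highest level was Sf3b6, a protein of the U2 snRNP that takes part in branch site recognition during splicing. Its FPKM was 568 in GFP+ cells (bounds 459 to 677) against 173 in input cells (139 to 206), a ratio of 3.29, and it was also the member with the highest mean normalized count over all 6 libraries, 8459. The next levels were those of CG17919, with 221 FPKM in GFP+ cells (163 to 279) against 87.5 in input cells (61.0 to 114), and of CG17124, with 193 in GFP+ cells (156 to 229) against 21.4 in input cells (16 to 26.9). The bounds are the confidence limits that the authors deposited with each group value. The bounds of CG17919 and CG17124 in GFP+ cells overlap, so the order of these genes is not resolved.

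CG12643 had 171 FPKM in GFP+ cells against 40.5 in input cells, and CG15756 had 120 in GFP+ cells against 29.1 in input cells. CG8927 had 90.6 FPKM in GFP+ cells against 7.17 in input cells, a larger ratio than any of the genes above it in level. Its deposited log2 fold change of 3.55 had a standard error of 0.157, among the smaller errors of the list. CG2145 (80.0 in GFP+ cells against 26.7 in input cells), CG7860 (75.4 in GFP+ cells against 20.4 in input cells) and CG13928 (71.6 in GFP+ cells against 18.4 in input cells) followed. Next in level was Ctl2, a choline transporter-like membrane protein, at 69.5 FPKM in GFP+ cells against 20.0 in input cells. Below it were CG3355, at 66.8 FPKM in GFP+ cells against 22.2 in input cells, and CG10713, at 60.2 in GFP+ cells against 3.51 in input cells. By mean normalized count over the 6 libraries the leading genes after Sf3b6 were CG17124 (6232), Ctl2 (3974), CG13928 (3589), CG2145 (3463), CG15756 (3280), CG9801 (3164) and CG17919 (2952). Of these, CG9801 is the only gene that was not already among the highest levels, with 48.1 FPKM in GFP+ cells against 14 in input cells.

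**Figure D1:**
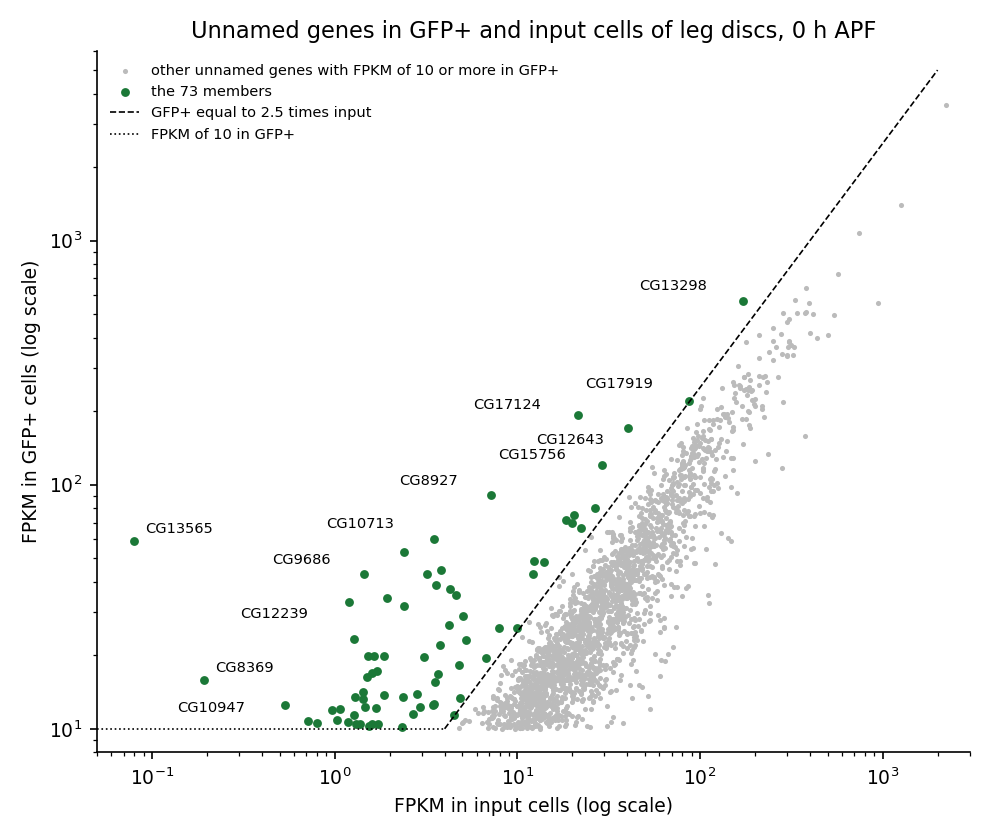
FPKM in GFP+ cells (y axis) against FPKM in input cells (x axis), both on log axes, for the 73 selected genes (green) and the other unnamed genes with an FPKM of at least 10 in GFP+ cells (grey), with lines at the FPKM floor of 10 and the ratio of 2.5. The selected genes run from 10.2 to 568 FPKM in GFP+ cells, and Orcokinin (CG13565) stands far to the left at 0.0799 FPKM in input cells.

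The ratio of FPKM had a median of 7.43 among the selected genes, against 1.11 over all 2189 unnamed genes with an FPKM of at least 10 in GFP+ cells. It was at least 10 in 26 genes and under 5 in 27. The highest ratio was that of Orcokinin, which encodes the precursor of the orcokinin neuropeptides (chromosome arm 2R, 23946959 to 23949076, minus strand). Its FPKM was 58.6 in GFP+ cells against 0.0799 in input cells, a ratio of 733. CG8369 followed with 15.8 FPKM in GFP+ cells against 0.193 in input cells, a ratio of 81.9. CG9686 had a ratio of 29.9 (43.0 FPKM in GFP+ cells against 1.44 in input cells) and CG12239 one of 27.8 (33.2 in GFP+ cells against 1.19 in input cells). These ratios rest on input levels near or below 1 FPKM, so the denominator is small.

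CG10947 had a ratio of 23.3, with 12.5 FPKM in GFP+ cells against 0.536 in input cells, and CG4577 one of 22.2, with 52.9 in GFP+ cells against 2.39 in input cells. prim had a ratio of 18.2 (23.3 FPKM in GFP+ cells against 1.28 in input cells) and CG9368 one of 17.8 (34.5 in GFP+ cells against 1.94 in input cells). CG10713 (17.1), CG3014 (14.9), MtnF (13.5) and CG14186 (13.2) completed the 12 highest ratios. MtnF belongs to the metallothioneins, small cysteine-rich proteins that bind metal ions, and had an FPKM of 43.3 in GFP+ cells against 3.21 in input cells. Of these, CG10713 was the only gene that was also among the 12 highest levels in GFP+ cells. Orcokinin and CG4577 came next in level, at ranks 13 and 14, and how level and ratio go together was not tested.

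In the deposited DESeq2 comparison, which uses counts rather than FPKM, all 71 of the genes that had an adjusted p were higher in GFP+ cells at an adjusted p under 0.05. The background of such calls was 23.3% of all 10174 genes with an adjusted p and 29.5% of the 5648 among them with an FPKM of at least 10 in GFP+ cells. This is the contrast that chose the genes, so nothing is read from the count. The highest adjusted p was 0.00763 (DESeq2, Orcokinin). CG8369 and CG17919 had a fold change without a p in the deposited table, as did 194 of 13673 genes. CG17919 had the smallest standard error of the list, with a log2 fold change of 1.28 (SE 0.121). It has no p and no values of single libraries, so it is not thereby the most reliable gene.

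The deposited fold change was smaller than the ratio of FPKM in 72 of the 73 genes. Its median on the log2 scale was 2.41, against 0.13 over all unnamed genes with an FPKM of at least 10 in GFP+ cells, and it ran from 1.23 for BORCS6, a subunit of the complex that positions lysosomes along microtubules, to 4.26 (SE 0.329) for CG10947. DESeq2 draws uncertain fold changes towards 0, and the fold changes of these genes were less certain than most. The standard error was over 0.3 in 50 of 73 genes, or 68.5%, against 5.12% of all unnamed genes with an FPKM of at least 10 in GFP+ cells. Among the 148 other genes that passed the same level and ratio it was over 0.3 in 105, or 77.2% of those with a standard error. The genes were chosen by the ratio and not by the fold, and what part this has in the difference was not tested. Orcokinin shows the size of this difference between scales, with a ratio of 733 beside a deposited log2 fold change of 1.67 (SE 0.561). 3 genes passed by FPKM but had a deposited fold under 2.5, namely BORCS6, CG17919 and CG31125.

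**Figure D2:**
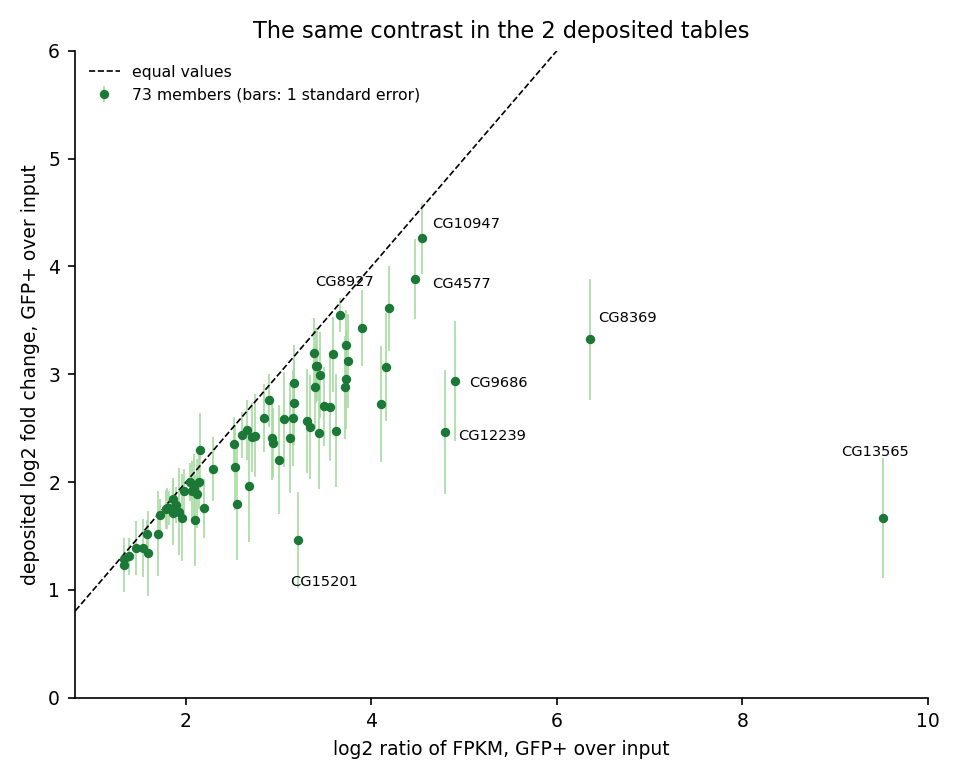
Deposited log2 fold change of GFP+ over input cells (y axis, bars show 1 standard error) against the log2 ratio of FPKM (x axis) for the 73 selected genes, with a dashed line of equal values. 72 of the 73 points lie below the line, and Orcokinin (CG13565) lies farthest from it.

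FPKM bounds of GFP+ and input cells were apart in 58 of the 73 genes, against a background of 7.70% of the 5910 genes with an FPKM of at least 10 in GFP+ cells. Among the 148 other genes that passed the same level and ratio they were apart in 101, or 68.2%. The bounds surround the values that chose the genes, so nothing is read from the excess over the background. In 15 genes the bounds overlapped, namely MtnF, CG2444, CG43324, CG33946, CG30172, CG9919, CG33155, CG3556, Gabat, CG13920, CG43103, CG33939, CG13064, CG14984 and BORCS6. MtnF is an example, with bounds of 0.00 and 121 around its value in GFP+ cells, against bounds of 0.00 and 21.4 around that in input cells. In Cufflinks such bounds hold the uncertainty of assigning reads to transcripts as well as counting error.

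Values of single libraries were worked back from the digits of the deposited mean normalized counts, together with the deposited fold change and standard error. For genes with a mean count of up to 1000, a set of whole reads was accepted where it met these values far better than the next set. Some markers under that count, such as rost (318) and Him (595), had no accepted set. The reads of 52 of the 73 genes were recovered in this way, and the other 21 were too abundant to be tried. The libraries are named GFP+ A to C and input A to C, because which replicate of the labels each of them is cannot be told. A normalized read is a read divided by the DESeq2 size factor of its library, which was 1.02, 0.914 and 0.845 in GFP+ libraries A, B and C and 1.17, 1.16 and 0.970 in input libraries A, B and C.

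Every GFP+ library was above every input library in 51 of the 52 genes, against a background of 30.6% of 1903 genes with a mean normalized count of 20 to 200. Among 349 other genes of that range that were called higher with a deposited fold of at least 2.5, the share was 95.4%. The lowest GFP+ library was a median of 3.10 times the highest input library, and at least 2 times in 43 genes. All 14 of the recovered genes whose FPKM bounds overlapped had no overlap between libraries. The ratio of normalized reads was within 20% of the ratio of FPKM in 45 of the 52 genes.

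Orcokinin had 1029, 406 and 920 normalized reads in GFP+ libraries A, B and C, against 6.85, 0.00 and 0.00 in input libraries A, B and C. All of its input signal was 8 reads of a single library, so its ratio of 733 in FPKM, or 344 in normalized reads, has a denominator that a few reads would move. CG10947 had 1081, 482 and 1053 normalized reads in GFP+ libraries A, B and C and 47.9, 18.1 and 36.1 in input libraries A, B and C. The means were 872 ± 338 in GFP+ cells and 34.0 ± 15 in input cells (SD, n = 3 each), and the lowest GFP+ library was still 10.1 times the highest input library. prim had 203, 120 and 243 normalized reads in GFP+ libraries A, B and C, against 14.6, 7.75 and 8.24 in input libraries A, B and C. MtnF had 182, 114 and 224 in GFP+ libraries A, B and C, against 23.1, 6.03 and 8.24 in input libraries A, B and C. In both genes every GFP+ library was several times above every input library, and input library A was the highest of the input libraries.

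CG8369 owed most of its reads to a single library. It had 211, 35 and 36.7 normalized reads in GFP+ libraries A, B and C, against 3.42, 0.86 and 0.00 in input libraries A, B and C, so that 74.7% of its GFP+ signal came from library A. Without GFP+ library A its ratio of normalized reads was 25.1, and with all libraries it was 66.1. CG9686 had 1085, 762 and 433 in GFP+ libraries A, B and C and 26.5, 5.17 and 51.5 in input libraries A, B and C, and its groups did not overlap. CG9368 had 1881, 1056 and 2416 in GFP+ libraries A, B and C and 179, 37.9 and 83.5 in input libraries A, B and C. CG3014 had 785, 459 and 781 in GFP+ libraries A, B and C and 79.6, 18.9 and 43.3 in input libraries A, B and C. CG9686, CG9368 and CG3014 were thus separated in all libraries, and the highest and lowest input libraries lay farther apart in ratio than the highest and lowest GFP+ libraries.

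CG15201 was the exception, since its groups overlapped. It had 237, 145 and 54.4 normalized reads in GFP+ libraries A, B and C, against 55.6, 26.7 and 44.3 in input libraries A, B and C, so GFP+ library C was just below input library A. Its ratio was 9.26 by FPKM and 3.45 by normalized reads, the only gene whose FPKM bounds were apart while its libraries overlapped. Without GFP+ library A the ratio of normalized reads was 2.37. By contrast, the libraries of CG13117 differed little within a group. It had 280, 268 and 252 normalized reads in GFP+ libraries A, B and C and 65.1, 51.7 and 69.0 in input libraries A, B and C.

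**Figure D3:**
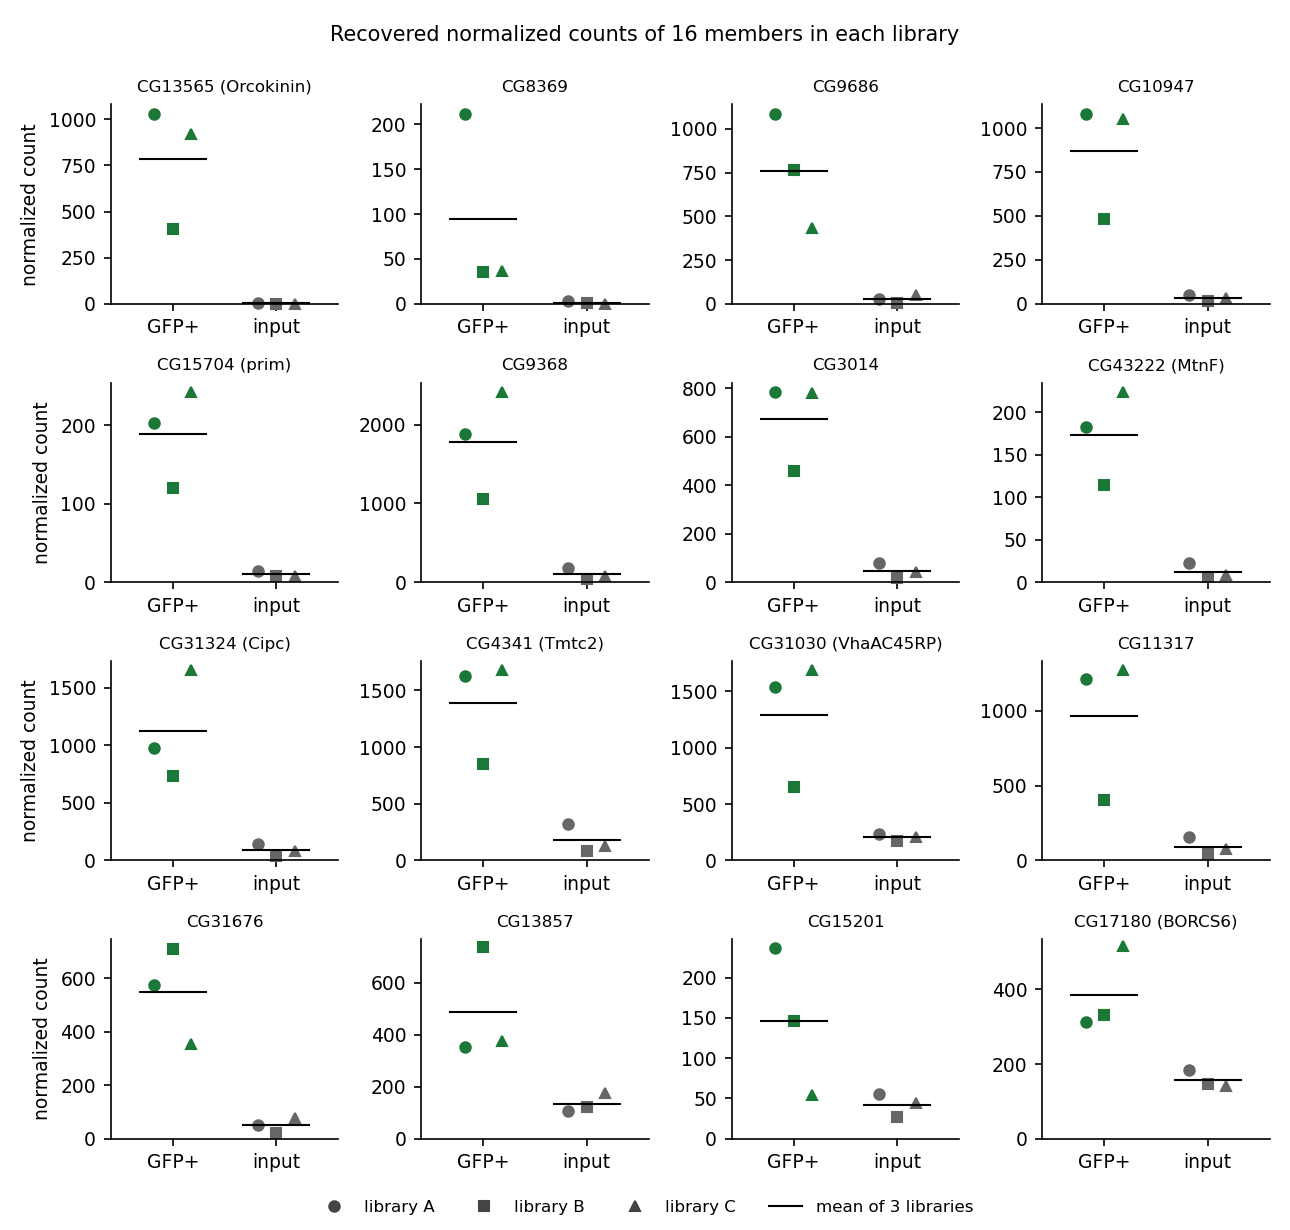
Normalized reads (y axis, linear from 0 and scaled per gene) of 16 selected genes in the 3 GFP+ libraries (green, left) and the 3 input libraries (grey, right), with 1 marker shape for each library and a line at the mean of each group. Of these genes CG15201 alone has a GFP+ library below an input library, and in CG8369 GFP+ library A (211) stands far above GFP+ libraries B and C (35 and 36.7).

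The ratio that chose the genes comes from these same libraries, so nothing is read from how many genes stay above it. 47 of the 52 genes kept a ratio of normalized reads of at least 2.5 when any 1 library was left out. The other 5 had a lowest ratio of 2.47 in CG14984 (without input library C), 2.37 in CG15201 (without GFP+ library A), 2.36 in CG3618 (without input library B), 2.30 in CG31125 (without GFP+ library C) and 2.05 in BORCS6 (without GFP+ library C). BORCS6 was already at 2.46 with all libraries, with 313, 330 and 516 normalized reads in GFP+ libraries A, B and C and 183, 145 and 142 in input libraries A, B and C. CG31125 had 1256, 962 and 1450 in GFP+ libraries A, B and C and 522, 442 and 482 in input libraries A, B and C.

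In other genes the loss of 1 input library raised the ratio of normalized reads by over 1.5 times. Leaving out 1 of input libraries A to C cannot lower this ratio by more than 1.5 times. A larger move can therefore only be a rise, and nothing is read from its direction. Without input library A the ratio was 24.3 in MtnF, against 13.9 with all libraries, 29.4 in CG9368 (17.8 with all), 21.7 in CG3014 (14.3), 16.1 in CG11317 (10.5), 15.4 in CG13868 (9.86), 17.9 in CG14321 (11.8), 16.7 in CG43324 (11.1), 13.5 in Tmtc2 (7.82) and 219 in CG8369 (66.1). Without it Orcokinin had no input reads left, so it has no ratio. CG9686 depended on input library C, without which its ratio was 47.9, against 27.4 with all libraries. Such a rise needs the library left out to be the highest input library, which was A in each of these genes except CG9686.

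The genes just inside the ratio of 2.5 by FPKM were BORCS6, CG17919, CG31125, CG3618 and CG14984. BORCS6 had 11.3 FPKM in GFP+ cells against 4.50 in input cells, a ratio of 2.52, and CG17919 had 2.52 as well. The ratio was 2.61 for CG31125, 2.76 for CG3618 and 2.90 for CG14984. Just outside were CG11077, now Mpv17, at 2.48, CG5835 at 2.40, CG7646 at 2.36, CG1265 at 2.30 and CG2061 at 2.29. Mpv17 differed between the measures, with 41.7 FPKM in GFP+ cells against 16.8 in input cells but a deposited log2 fold change of -0.16 (SE 0.263). At the FPKM floor of 10 the genes just inside were CG17803 (10.2 FPKM in GFP+ cells against 2.34 in input cells), CG32706 (10.3 in GFP+ cells against 1.53 in input cells) and CG32944 (10.4 in GFP+ cells against 1.59 in input cells). Just outside it were CG14509, now jus, with 9.97 FPKM in GFP+ cells against 1.13 in input cells, CG3703 with 9.96 in GFP+ cells against 1.93 in input cells, and CG6999 with 9.92 in GFP+ cells against 1.04 in input cells.

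The same libraries tended to be low or high across these genes. GFP+ library B was the lowest of the GFP+ libraries in 37 of the 52 genes (71.2%), input library A was the highest of the input libraries in 40 (76.9%), and both held in 33 (63.5%). Over the 1903 background genes these shares were 40.6%, 38.4% and 20.1%. Over the 349 other genes called higher with a fold of at least 2.5 they were 75.9%, 64.5% and 53.3%. The differences between these shares were not tested. Most of the 52 genes had a higher mean count than these comparison genes. Among the 18 within the same range of 20 to 200 GFP+ library B was the lowest in 8 and input library A the highest in 12, so both held in at most 8. Reads were also recovered for 14 of the 148 other genes that passed the same level and ratio, with shares of 57.1%, 42.9% and 42.9%. Input library B was the lowest of the input libraries in 46 of the 52 genes. Summed over the 52 genes, the normalized reads were 37405, 22848 and 39319 in GFP+ libraries A, B and C and 6635, 3396 and 5119 in input libraries A, B and C.

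GFP+ library B had a median of 0.587 times the mean of the other GFP+ libraries, and input library A 1.59 times the mean of the other input libraries. These medians were 0.795 and 1.52 in the 18 genes with a mean count of 20 to 200, 0.533 and 1.66 in the 349 other higher genes, and 0.881 and 1.04 in the background genes. CG11317 shows the pattern, with 1213, 401 and 1270 normalized reads in GFP+ libraries A, B and C and 157, 43.0 and 76.3 in input libraries A, B and C. CG31676 shows the reverse in GFP+ cells, with 575, 712 and 356 normalized reads in GFP+ libraries A, B and C, against 53.1, 23.2 and 77.3 in input libraries A, B and C. GFP+ library B was the highest GFP+ library in 5 genes, namely CG2444, CG14567, CG31676, CG33946 and CG13857. CG13857 had 354, 736 and 377 normalized reads in GFP+ libraries A, B and C and 108, 124 and 175 in input libraries A, B and C. The median ratio of FPKM was 8.32 in the 33 genes with both features and 5.84 in the other 19.

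Markers of neurons and secretory neurons moved with the same libraries. Of 18 measured, 10 were called higher in GFP+ cells and 4 lower, 8 reached an FPKM of 10 in GFP+ cells and 0 were listed at 0. The 10 whose reads were recovered summed to 4959, 2476 and 5681 normalized reads in GFP+ libraries A, B and C and to 2618, 1265 and 2027 in input libraries A, B and C. Of these 10, 8 had both features, among them cac, which was called lower, and ChAT, which had no call. Both features were also found in 186 (53.3%) of the 349 other higher genes, so they are not particular to these markers. nSyb, a vesicle protein of neurotransmitter release, had 1830, 780 and 1677 in GFP+ libraries A, B and C and 321, 119 and 234 in input libraries A, B and C. Pal2 and amon, enzymes of neuropeptide processing, had the highest deposited log2 fold changes of the list, 3.77 (SE 0.418) and 3.13 (SE 0.429). elav, an RNA-binding protein of neurons that is a defining marker, was lower in GFP+ cells, with 10.1 FPKM in GFP+ cells against 18.6 in input cells. The part of these cells in the levels of the selected genes was not tested.

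The markers tx and ato did not have both features. tx, which encodes a bHLH factor expressed in tendon cells, had 567, 386 and 445 normalized reads in GFP+ libraries A, B and C and 35.1, 80.9 and 83.5 in input libraries A, B and C, so that GFP+ library B was its lowest GFP+ library but input library A was also its lowest input library. ato, a proneural factor for chordotonal organs, showed 450, 616 and 490 in GFP+ libraries A, B and C and 84.7, 121 and 76.3 in input libraries A, B and C, so that GFP+ library B was its highest. Of the 8 markers of sensory and chordotonal organs whose reads were recovered, 2 had both features, namely iav and dpr1. tx was the only tendon marker whose reads could be recovered.

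**Figure D4:**
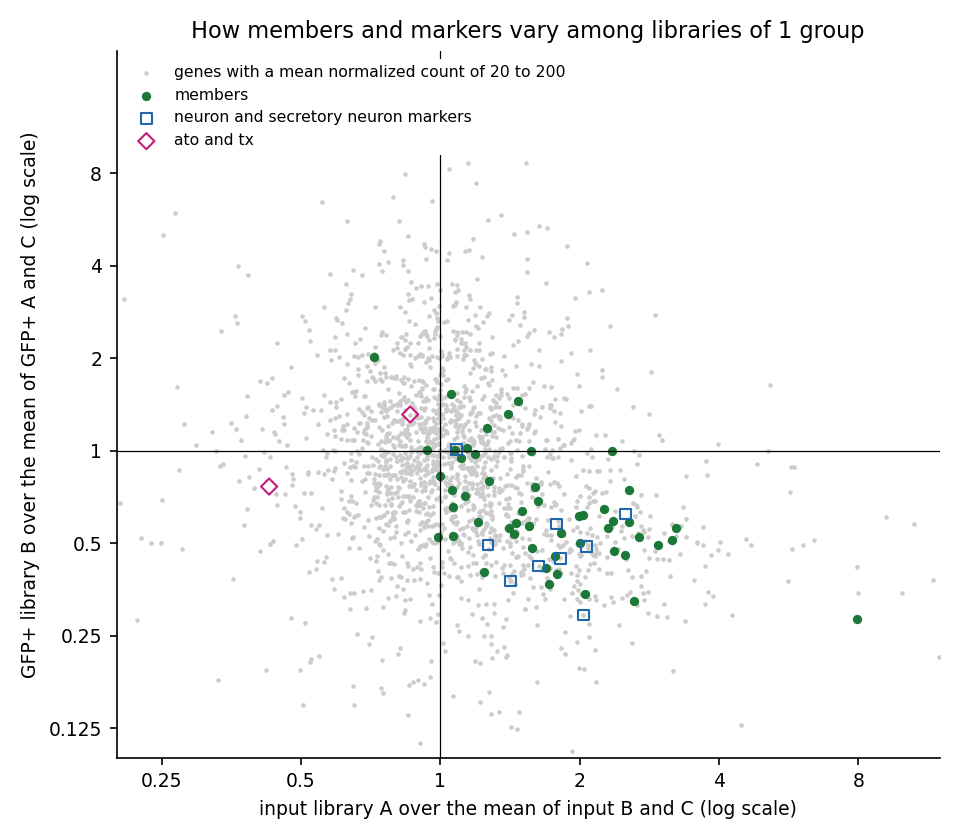
GFP+ library B over the mean of GFP+ libraries A and C (y axis) against input library A over the mean of input libraries B and C (x axis), both as ratios on log axes, for the recovered selected genes (green), markers of neurons and secretory neurons (squares), ato and tx (diamonds) and background genes with a mean normalized count of 20 to 200 (grey, a few lie outside the axes). Orcokinin is left out because input libraries B and C are at 0, and the selected genes lie mostly to the lower right, with medians of 0.587 on the y axis and 1.59 on the x axis.

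Of the renamed genes, VhaAC45RP, NaPi-III and Ctl2 encode proteins tied to transport across membranes. VhaAC45RP is related to an accessory subunit of the V-ATPase proton pump and had 1538, 651 and 1694 normalized reads in GFP+ libraries A, B and C, against 238, 173 and 210 in input libraries A, B and C. Its deposited log2 fold change was 2.48 (SE 0.279). NaPi-III, a phosphate cotransporter, had 48.6 FPKM in GFP+ cells against 12.3 in input cells, and Ctl2 was given above. Both of these exceeded the count up to which single libraries could be recovered.

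The other renamed genes have varied roles. Tmtc2 belongs to the transmembrane O-mannosyltransferases of the secretory pathway, which in mammals modify cadherins. It had 1627, 847 and 1679 normalized reads in GFP+ libraries A, B and C and 325, 80.1 and 126 in input libraries A, B and C. Gabat encodes GABA transaminase, which breaks down the transmitter GABA, and had 919, 435 and 749 in GFP+ libraries A, B and C and 144, 93.8 and 197 in input libraries A, B and C. Cipc is the counterpart of a mammalian protein that binds CLOCK in the circadian clock, and had 978, 735 and 1653 in GFP+ libraries A, B and C and 140, 36.2 and 85.5 in input libraries A, B and C. All 8 renamed genes with recovered reads had every GFP+ library above every input library. So did 51 of all 52 recovered genes and 95.4% of the 349 other higher genes, so this is not particular to the renamed genes.

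The transcripts of the selected genes were of ordinary length. Their median transcript length was 1605 bases, against 1633 over all unnamed genes with an FPKM of at least 10 in GFP+ cells, and their median coding length was 906 bases, against 1153.5. With the trend of the deposited fold change on transcript length removed, all 71 genes with an adjusted p were still called higher, with a median log2 fold change of 2.40. The same contrast chose the genes, so nothing is read from this count. Coding lengths ran from 78 bases in CG33939 to 2814 in Tmtc2. In 10 genes (13.7%) the coding length was at most 300 bases, against 5.11% of the unnamed genes with an FPKM of at least 10 in GFP+ cells. 10 genes had a single exon (13.7%, against 9.34%).

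The 10 genes with the shortest coding lengths were CG33939 (78 bases), CG33946 (120), prim (153), CG33155 (180), MtnF (192), CG43324 (198), CG12643 (231), CG43103 (231), CG13064 (261) and CG8369 (282). Apart from CG12643 they were of low or moderate count. CG33939 had 101, 148 and 286 normalized reads in GFP+ libraries A, B and C and 59.1, 28.4 and 45.3 in input libraries A, B and C. CG33946 had 60.7, 64.5 and 48.5 in GFP+ libraries A, B and C, against 6.85, 7.75 and 3.09 in input libraries A, B and C. CG43324 had 526, 316 and 853 in GFP+ libraries A, B and C, against 84.7, 18.1 and 49.5 in input libraries A, B and C. In all 3 genes the groups were apart, with the narrowest margin in CG33939.

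35 of the 73 genes overlapped another annotated gene, 10 of them on the same strand, and 38 had no overlapping gene. The kit and counting are not stated to use strand, so reads of overlapping genes may be shared. How far this can affect a level differs among the 35 genes and was not tested. CG31125 overlaps ash2 by only 6 bases, and CG2269 overlaps sut4, which had 0 FPKM in GFP+ and in input cells. CG13928 lies on chromosome arm 3L from 1625791 to 1628377 (minus strand) wholly within GC, which had 11.8 FPKM in GFP+ cells against 1.08 in input cells. CG33155 lies on 2R from 13954195 to 13955664 (plus strand) wholly within the span of mRpL53, a mitochondrial ribosomal protein gene with 60.1 FPKM in GFP+ cells against 25.1 in input cells. It also lies wholly within AGO1 on the other strand, an Argonaute gene with 37.7 FPKM in GFP+ cells against 134 in input cells, a ratio of 0.28. CG33155 itself had 30.3, 39.4 and 48.5 normalized reads in GFP+ libraries A, B and C and 11.1, 4.30 and 5.15 in input libraries A, B and C, the lowest mean count of the list. CG42361 overlaps CG42360, which had 9.24 FPKM in GFP+ cells against 10.6 in input cells, a ratio of 0.88.

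The genes were spread over the genome. They numbered 8 on 2L (11%, against 16.6% of the unnamed genes with an FPKM of at least 10 in GFP+ cells), 18 on 2R (24.7%, against 19%), 15 on 3L, 18 on 3R, 1 on chromosome 4 (CG11155) and 13 on X (17.8%, against 19.1%). A single pair lay within 10 kb of each other. CG16798 (2L, 20376981 to 20382356, minus strand) and CG10947 (2L, 20385293 to 20414800, minus strand) are 2936 bases apart with no gene between them.

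Both genes of the pair were higher in every GFP+ library, but not to the same extent. CG16798 had 1069, 628 and 849 normalized reads in GFP+ libraries A, B and C, against 153, 138 and 150 in input libraries A, B and C, while the input values of CG10947, given above, were lower and its GFP+ values similar. The ratio of FPKM was 6.08 for CG16798 and 23.3 for CG10947. MtnF and CG31125 on 3R were 18205 bases apart with 1 gene between them, with ratios of 13.5 and 2.61.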

How the data were processed

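Genes were selected, and their lists chosen, with earlier results of these data known. Messenger RNA of 3 GFP+ and 3 input libraries was primed with oligo-dT and read from 1 end. According to the submitters' processing notes, the tools were Trimmomatic 0.32, Bowtie2 2.1.0, Cufflinks 2.2.1 and DESeq2 1.2.8, with the genome build dm6. The counting program, the strand setting and the annotation release are not given in the sources used here. The authors deposited 1 FPKM per group with confidence bounds. The authors also deposited a DESeq2 comparison of GFP+ over input, with the mean normalized count as a signal value, the log2 fold change and its standard error, the Wald score, and p-values both raw and adjusted by Benjamini-Hochberg. These comparison columns are the authors' own, and were used because the selection joins them. No new test between libraries was fitted, since both tables hold values per group. The only new p-values are those computed after removal of the length trend. The labels number the replicates, and the study's supplement calls them independent.

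Ratios of FPKM carry no pseudocount. A member was called higher at a deposited adjusted p under 0.05. Named were the 12 highest levels, the 12 highest ratios, the 8 highest mean counts, genes at the edges of the selection, members without an adjusted p, members with overlapping FPKM bounds, members within 10 kb of each other, and members that have been renamed. CG13117, CG11317, CG31676, CG14567, CG13857, CG15201, the markers tx, ato, iav and dpr1 and the genes named for an overlapping gene were chosen after their values were seen.

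Size factors were solved from the lowest mean normalized counts. At the solution, 272 of 289 values under 1.2 came out as whole reads scaled by those factors (tolerance 4e-15). The group of each size factor followed from the direction of the deposited fold change of genes with a single read. The mean normalized counts summed to 31652166 over all genes, and the size factors give the relative depth. Sets of 6 whole reads that gave the deposited mean were searched for selected genes and markers with a mean normalized count of up to 1000. The same was done for background genes of 20 to 200. A set was accepted where a negative binomial fit with the prior that the authors' tool uses returned the deposited log2 fold change to within 1e-05. The next set also had to be at least 50 times worse. The step was tested on simulated data of GFP+ against input, in which all 281 sets were accepted and right, and 0 were accepted after the digits were altered. The recovered values are inferred, and values without replicate identity cannot be paired.

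Coordinates, names and lengths came from the Ensembl 115 annotation. The trend of the fold change on transcript length was estimated with lowess (statsmodels 0.14.6, span 0.3). The fold change less this trend was divided by its deposited standard error. The resulting normal p-values were adjusted anew by Benjamini-Hochberg and called at under 0.05. Python 3.11.15, pandas 2.3.3, numpy 2.4.6, scipy 1.17.1, numba 0.67.0 and matplotlib 3.10.9 were used. Planned descriptions of promoter motifs and of protein features were not run, because the tables they need were not used here.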

Additional observations from a re-analysis of the deposited data

How the results depend on the processing

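The number of genes selected depended on the thresholds. It was 123 with an FPKM floor of 5, 33 with a floor of 20, and 38 when the lower FPKM bound in GFP+ cells had to reach 2.5 times the upper bound in input cells, against 73 genes as selected. It stayed within 1.5 times of 73 with a ratio of 2 (102 genes) or 3 (67), with a pseudocount of 1 (70), with the deposited fold in place of the ratio (70) and with a mean normalized count of at least 100 (64). The 71 calls were also made with an adjusted p under 0.01, with adjustment over every deposited p and with the length trend removed. The median ratio of 7.43 was 5.09 with a pseudocount of 1 and 5.31 as the deposited fold. Within 20 kb instead of 10 kb, 4 genes lay near another instead of 2. Of the 52 genes with recovered reads, 51 had a ratio of normalized reads of at least 2.5, and 49 to 52 when each library was left out in turn. The same libraries chose the genes, so nothing is read from these counts. The recovered reads and the comparisons made with them were added after seeing the data.

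Alternatives for a hydrophobic protein start and for related proteins were not run. No paired analysis was possible because both tables hold group values and the recovered libraries carry no replicate number. The 21 most abundant genes have no values per library. The ratios of Orcokinin and CG8369 rest on few input reads. Intervals across animals cannot be given.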
